A study of Mus musculus with 8 samples.

Results

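The genes described here are 43 genes of peptide signalling, fixed by name: 32 precursors of neuropeptides and peptide hormones, 7 granins and granin-like proteins of the secretory granule (Vgf, Scg2, Scg3, Scg5, Chga, Chgb and Pcsk1n) and 4 enzymes that turn precursors into active peptides (Pcsk1, Pcsk2, Cpe and Pam). The names were matched to the deposited gene table of 33971 genes, and 41 had a row in it. No row carried the names Kiss1 or Ucn, so their expression was not analysed here and they enter only the promoter search. A further 7 precursors stayed under the filter on low counts, so 34 genes were tested among 19367 in all: 23 precursors, 7 granins and 4 enzymes.

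Neuropeptides are made as longer precursor proteins that enter dense-core vesicles, the secretory granules of neurons. There the prohormone convertases cut the precursor at pairs of basic residues, carboxypeptidase E trims the exposed residues, and the amidating enzyme Pam converts a C-terminal glycine into an amide. Granins are the bulk proteins of the granule, and peptide genes are expressed by neurons of the hypothalamus, the cortex and the brainstem.

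The study asked what a lack of choline in the maternal diet does to the embryonic brain. Wild-type (WT) females mated with WT males ate either normal chow (ND) or, for the CDD group, chow deficient in choline from the day of mating on, and whole embryo brains were taken at E14.5. Poly-A RNA of 4 CDD and 4 ND brains was sequenced, with 31770217 to 43121170 gene-assigned read counts per brain. The number of dams and litters behind each group was not given in the sources used here, so p-values measure the spread between these brains, and brains of 1 litter cannot be told apart from independent ones.

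The brain regions in the tissue set which peptide genes can be seen, so marker lists were read first. All 10 genes of a brain check list were tested, and their summed level was 4415 to 4838 CPM (read counts scaled to library size) in CDD brains and 4479 to 4553 CPM in ND brains. CDD replicate 2 stood apart in its caudal markers: 19 markers of caudal hindbrain and spinal cord summed to 156 CPM there and to 4.72 to 10.5 CPM in the other 7 brains, with Hoxa5 at 33.1 CPM there and at 0 in every other brain. Sensory ganglion markers summed to 154 CPM in the same brain and to 89.6 to 98.5 CPM in the others. Counts of called precursors and granins are therefore also given without CDD replicate 2. Of 16 anterior pituitary markers 12 had a row, and no row carried the name of the pituitary hormone subunit gene Cga. Pou1f1, a defining pituitary factor, had 0 to 2 counts per brain, and the list summed to 22.7 to 31.0 CPM in CDD and 20.4 to 23.2 CPM in ND brains. The X-inactivation transcript Xist was present in 2 of 4 CDD and 1 of 4 ND brains.

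Levels of different genes were compared only per kilobase, as the authors' FPKM averaged over the 8 brains. Cpe, the carboxypeptidase, was the most abundant at 180 FPKM, followed by Pcsk1n at 74.3 FPKM, the somatostatin precursor Sst at 64.1 FPKM, Scg3 at 46.7 FPKM, Scg5 at 36.8 FPKM and Chga at 26.1 FPKM. Sst was thus the only precursor among the 6 most abundant genes. The median was 1.86 FPKM over the 23 tested precursors, 26.1 FPKM over the 7 granins and 7.0 FPKM over the 4 enzymes, whose range ran from 0.567 FPKM (Pcsk1) to 180 FPKM (Cpe). The next precursor after Sst was Npy, the neuropeptide Y gene, at 17.3 FPKM.

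**Figure D1:**
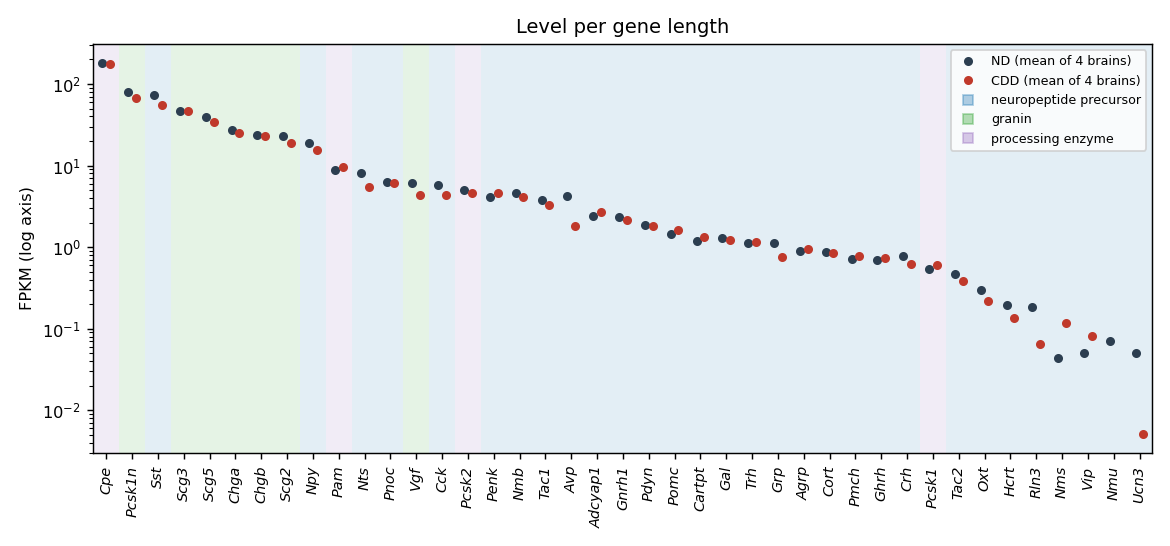
Mean FPKM of each gene with a row (log axis) in the 4 ND brains (dark points) and the 4 CDD brains (red points), in order of the mean over all brains, with background shading for precursors (blue), granins (green) and enzymes (violet). Granins and Cpe fill the upper end with Sst among them, while most precursors lie under 10 FPKM, and Nmu in CDD brains is at 0 and has no point.

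Read counts of all genes were fitted with edgeR's quasi-likelihood test, with ND as the reference, and a gene was called at a Benjamini-Hochberg adjusted p under 0.05 over all 19367 genes. Of the 34 genes 7 were called, all lower in CDD: the precursors Avp, Nts, Cck and Sst and the granins Vgf, Scg2 and Scg5. That was 20.6% of the 34, against 888 of 19367 genes called lower in CDD (4.59%). The list of members was chosen with earlier results of these data known, so the 2 shares are given as a description only. None of the 34 was called higher, against 822 genes in all (4.24%). DESeq2 and limma-voom also called 0 of them higher, and 0 were higher at an unadjusted p under 0.05. By class, 4 of 23 precursors (17.4%), 3 of 7 granins (42.9%) and 0 of 4 enzymes were called lower, and with DESeq2 the counts were 4, 4 and 0. Among the enzymes 0 also had an unadjusted p under 0.05. Without CDD replicate 2 edgeR called 4 precursors and 4 granins lower, the addition being Pcsk1n. That fit called 1403 genes in all, counting both directions. The granin count went to 1 when CDD replicate 1 or 4 or ND replicate 1, 3 or 4 was left out, and the precursor count went to 2 without ND replicate 3.

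The median log2 fold change (CDD over ND) was -0.06 over the precursors, -0.17 over the granins and 0.02 over the enzymes, beside -0.0038 over all genes tested. In all, 23 of the 34 estimates were below 0. In 7 genes (Avp, Nts, Cck, Sst, Tac1, Vgf and Scg5) every CDD brain lay below every ND brain, as it did in 7.39% of all genes tested. In none did every CDD brain lie above every ND brain, as it did in 7.65% of all genes. In whole-brain RNA, fewer cells of a type and less RNA per cell cannot be told apart.

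**Figure D2:**
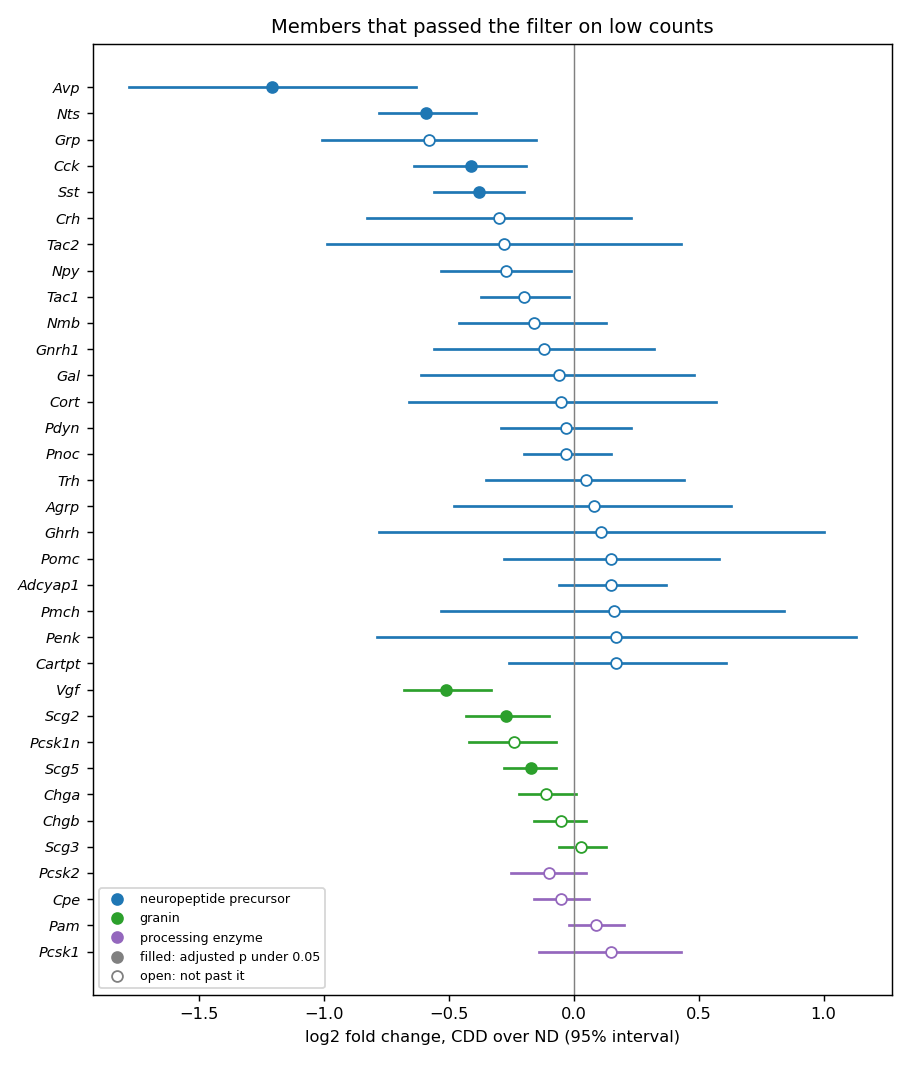
Log2 fold change of CDD over ND with its 95% interval for the 34 tested genes, by class, with filled points for genes with an adjusted p under 0.05 in edgeR's test. The 7 filled points all lie below 0, from -1.21 (Avp) to -0.17 (Scg5), and the intervals of weakly expressed precursors such as Ghrh and Tac2 span more than those of the granins.

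The largest difference among the tested members was in Avp, which encodes arginine vasopressin, a hormone of the magnocellular neurons of the hypothalamus that retains water and also acts as a brain peptide. Avp (ENSMUSG00000037727) lies on chromosome 2 and its neighbour Oxt, the oxytocin precursor, lies on the opposite strand with 3565 bases between the genes. Their coding sequences show how close the hormones are. Shown for each is the stretch of exon 1 that encodes the 9 residues of the hormone, with the codons of the Gly-Lys-Arg amidation and cleavage site in capitals, from GENCODE transcripts on GRCm38 at chr2:130582437-130582472 (minus strand) for Avp and chr2:130576267-130576302 (plus strand) for Oxt.
Avp: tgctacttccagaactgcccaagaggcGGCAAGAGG
Oxt: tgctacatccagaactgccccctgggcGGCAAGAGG
The stretches differ at 5 of 36 bases (86.1% identical). The site in capitals is the one that Pcsk1 or Pcsk2, Cpe and Pam act on in turn.

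Avp was at 0.966, 0.811, 1.86 and 0.573 CPM in CDD replicates 1 to 4 and at 2.11, 2.22, 2.66 and 2.99 CPM in ND replicates 1 to 4. The highest CDD brain, replicate 3, stayed below the lowest ND brain. The means were 1.05 ± 0.561 CPM (SD, n = 4) in CDD and 2.49 ± 0.406 CPM in ND. On the log2 scale the fold change was -1.21 (SE 0.27, 95% interval -1.78 to -0.63), or 0.433 times the ND level (edgeR, adjusted p = 0.0142). The gene rests on few reads, 159 in the 4 CDD and 338 in the 4 ND brains. Its call was lost without ND replicate 3 or without ND replicate 4 (edgeR, adjusted p up to 0.0583), with log2 fold changes from -1.66 to -1.01 over the 8 fits that each left out 1 brain. Among the 5 brains without Xist (2 CDD and 3 ND) it was -0.69 and not called (edgeR, adjusted p = 0.0806).

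Oxt could not be compared in the same way. It had 4, 6, 4 and 3 reads in the CDD brains and 6, 4, 2 and 10 reads in the ND brains, under the filter, and no fold change is given. At this depth a difference in Oxt was not detectable.

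Nts encodes the precursor of neurotensin and neuromedin N, peptides of the hypothalamus and midbrain that act on dopamine neurons and body temperature. The stretch of Nts (ENSMUSG00000019890, exon 4, GRCm38 chr10:102482349-102482399, minus strand) that encodes the 13 residues of neurotensin is shown with the Lys-Arg cleavage sites at its ends in capitals, since these mark the cuts that the convertases make.
Nts: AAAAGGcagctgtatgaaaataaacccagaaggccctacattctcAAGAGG
Nts was at 6.67, 6.06, 6.74 and 7.66 CPM in CDD replicates 1 to 4 and at 10.3, 9.41, 10.4 and 10.6 CPM in ND replicates 1 to 4. The diets were well apart, with a gap between 7.66 and 9.41 CPM. Its log2 fold change was -0.59 (SE 0.093), 0.666 times the ND level, with the smallest adjusted p among the 34 genes (edgeR, adjusted p = 0.00142). It was called in all 8 fits that left out 1 brain and among the brains without Xist.

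Sst encodes somatostatin, which inhibits growth hormone release and marks a class of cortical interneurons, and Cort encodes cortistatin, a related peptide of the cortex. The last 14 codons of Sst (ENSMUSG00000004366, exon 2, GRCm38 chr16:23889732-23889779, minus strand) and of Cort (exon 2, GRCm38 chr4:149125267-149125314, minus strand) are shown with the basic pair before them in capitals, because the peptides act on the same receptors.
Sst: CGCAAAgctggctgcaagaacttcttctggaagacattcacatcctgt
Cort: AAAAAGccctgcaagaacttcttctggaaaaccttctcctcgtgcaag
The longest run of bases that the stretches share is 21 bases. Sst was at 44.0, 39.0, 44.9 and 33.3 CPM in CDD replicates 1 to 4 and at 55.6, 47.5, 54.9 and 52.3 CPM in ND replicates 1 to 4. Every CDD brain was below every ND brain, and the CDD brains were spread more widely. The log2 fold change was -0.38 (SE 0.083), 0.768 times the ND level (edgeR, adjusted p = 0.0136), and the gene was called in all 8 fits that left out 1 brain. Cort was at 0.580 ± 0.116 CPM in CDD and 0.596 ± 0.188 CPM in ND, a log2 fold change of -0.05 with a 95% interval of -0.66 to 0.57, so that a difference as large as that in Sst lay within its interval.

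Cck encodes cholecystokinin, a peptide of cortical neurons as well as of the gut. It was at 6.16, 5.62, 5.83 and 5.40 CPM in CDD replicates 1 to 4 and at 8.75, 6.50, 8.21 and 7.13 CPM in ND replicates 1 to 4. The ND brains differed more among themselves than the CDD brains did, and the groups did not overlap. The log2 fold change was -0.41 (SE 0.11), 0.752 times the ND level (edgeR, adjusted p = 0.0237), and Cck was not called when ND replicate 1 or 3 was left out (edgeR, adjusted p up to 0.105).

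**Figure D3:**
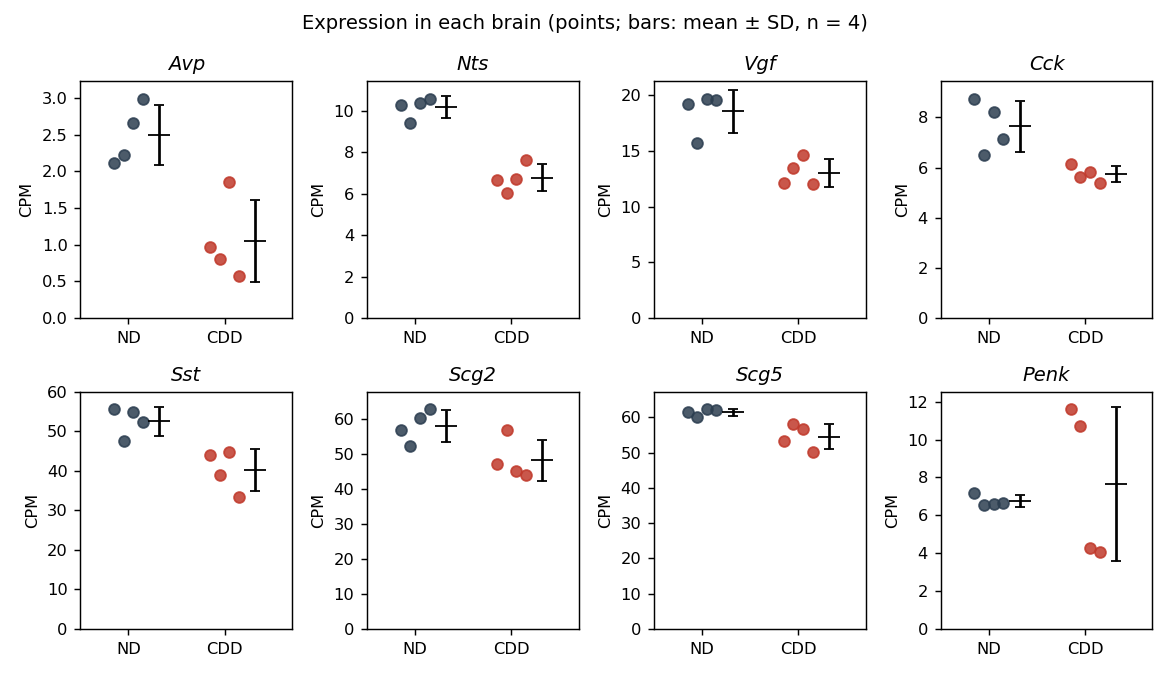
CPM in each brain (points) with the mean ± SD (bars, n = 4) for the 7 genes called lower in CDD and for Penk, which has the largest SD of log2 CPM over the CDD brains among the tested genes here of at least 1 CPM. In Avp, Nts, Vgf, Cck, Sst and Scg5 the red CDD points lie below all dark ND points, in Scg2 CDD replicate 2 at 56.7 CPM lies among the ND brains, and in Penk the 4 ND points fall between the upper and the lower pair of CDD points.

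Of the tachykinins, Tac1, the precursor of substance P, was not called although its diets did not overlap. It was at 11.6, 11.7, 11.6 and 10.2 CPM in CDD replicates 1 to 4 and at 13.5, 12.3, 14.2 and 11.7 CPM in ND replicates 1 to 4, with ND replicate 4 only just above CDD replicate 2. Tac1 had a log2 fold change of -0.20 (SE 0.083; edgeR, adjusted p = 0.145). Tac2, the neurokinin B precursor, was near the filter at 0.532 ± 0.265 CPM in CDD and 0.644 ± 0.195 CPM in ND, with a 95% interval of -0.99 to 0.43 around -0.28.

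The feeding and arousal peptides showed no called gene. Npy, which stimulates feeding, was the nearest at 8.94 ± 1.77 CPM in CDD and 10.8 ± 1.03 CPM in ND (log2 fold change -0.27; edgeR, adjusted p = 0.195), and CDD replicate 4 at 6.45 CPM was its lowest brain. Agrp, its partner in hunger neurons, was at 0.968 ± 0.306 CPM in CDD and 0.926 ± 0.263 CPM in ND, but the gene's span in the table overlaps Ctcf and Ripor1 on the opposite strand and Gm45855 on its own strand, so its count is uncertain. Pomc, the precursor of the satiety peptide alpha-MSH and of ACTH, was at 2.17 ± 0.695 CPM in CDD and 1.96 ± 0.244 CPM in ND (log2 fold change 0.15, 95% interval -0.28 to 0.58).

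Cartpt, the precursor of the satiety peptide CART, had the log2 fold change 0.17 (95% interval -0.26 to 0.61) and Gal, the galanin precursor, -0.06 (95% interval -0.61 to 0.48). Pmch, the precursor of melanin-concentrating hormone, had 0.16 (95% interval -0.53 to 0.84), and it shares its locus with Parpbp on the opposite strand. All 3 had a mean under 2 CPM in both diets, and the intervals of Gal and Pmch hold changes as large as that of Sst in either direction.

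The releasing factors of the hypothalamus other than Sst were all weakly expressed. Crh, which drives the stress axis, was at 0.832 ± 0.253 CPM in CDD and 1.03 ± 0.143 CPM in ND (log2 fold change -0.30, 95% interval -0.83 to 0.23), with 0.452 CPM in CDD replicate 4 and 0.953 to 0.966 CPM in the other CDD brains. Trh, which releases thyrotropin, had a log2 fold change of 0.05 (95% interval -0.35 to 0.44). Gnrh1, which controls the gonadotropins, had -0.12 (95% interval -0.56 to 0.32). Ghrh, which releases growth hormone, had 0.11 (95% interval -0.78 to 1.00) and was at 0.694 and 0.883 CPM in CDD replicates 1 and 3 and at 0.174 and 0.211 CPM in CDD replicates 2 and 4. The CDD brains of Ghrh thus lay on either side of all 4 ND brains, which held 0.380 to 0.551 CPM.

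Of the remaining precursors, Grp, which encodes gastrin-releasing peptide, had the lowest estimate that was not called. It was at 1.03, 1.39, 1.25 and 0.845 CPM in CDD replicates 1 to 4 and at 2.11, 1.34, 1.76 and 1.57 CPM in ND replicates 1 to 4, and CDD replicate 2 was above ND replicate 2. Its log2 fold change was -0.58 (SE 0.21; edgeR, adjusted p = 0.0842). Nmb, the precursor of the related neuromedin B, had -0.16 (95% interval -0.46 to 0.13), and its count is uncertain because Sec11a overlaps it on the same strand. Adcyap1, the PACAP precursor and the single tested gene of the secretin family, was at 10.2 ± 1.07 CPM in CDD and 9.13 ± 1.19 CPM in ND (log2 fold change 0.15, 95% interval -0.06 to 0.37).

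None of the opioid precursors was called, but Penk, the enkephalin precursor, differed among the CDD brains. It was at 11.6, 10.7, 4.30 and 4.04 CPM in CDD replicates 1 to 4 and at 7.20, 6.53, 6.62 and 6.67 CPM in ND replicates 1 to 4. CDD replicates 1 and 2 were above every ND brain and replicates 3 and 4 below every ND brain, which gave a log2 fold change of 0.17 with a 95% interval of -0.79 to 1.13. The SD of its log2 CPM was 0.814 over the CDD brains and 0.0623 over the ND brains, and 43 of 15888 genes of at least 1 CPM, Penk included, had a CDD SD that large. The split did not follow Xist, which was present in CDD replicates 2 and 4. For Avp the SD over the CDD brains was 0.674 and over the ND brains 0.228, and for Pomc 0.488 and 0.176. Pdyn, the dynorphin precursor, had a log2 fold change of -0.03 (95% interval -0.29 to 0.23) and Pnoc, the nociceptin precursor, -0.03 (95% interval -0.20 to 0.15), so that the interval of Pnoc did not hold a change as large as that of Nts, Cck or Sst.

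The 7 precursors under the filter had at most 19 reads in any brain. Nmu, the neuromedin U precursor, had 0 reads in all 4 CDD brains and 1, 1, 3 and 3 reads in the ND brains, all at or under the floor of 3 counts. Vip, the vasoactive intestinal peptide precursor, had 9, 19, 2 and 8 reads in the CDD brains and 6, 6, 2 and 9 reads in the ND brains. Hcrt, the orexin precursor that sustains wakefulness, had 0 to 7 reads per brain in CDD and 3 to 7 in ND. Nms had 2 to 7 reads in CDD and 0 to 3 in ND, Rln3 0 to 2 and 2 to 5, and Ucn3 0 to 1 and 1 to 5. Differences in these genes were not detectable at this depth.

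Of the granins, Vgf had the largest difference. Its product is cut into several signalling peptides and its gene responds to neurotrophins. Vgf (ENSMUSG00000037428, chromosome 5) was at 12.1, 13.5, 14.6 and 12 CPM in CDD replicates 1 to 4 and at 19.2, 15.7, 19.7 and 19.6 CPM in ND replicates 1 to 4, and the lowest ND brain was above the highest CDD brain. Its log2 fold change was -0.51 (SE 0.086), 0.705 times the ND level (edgeR, adjusted p = 0.00221), and it was called in all 8 fits that left out 1 brain.

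Scg2 (ENSMUSG00000050711), the secretogranin II gene and the source of secretoneurin, was at 47.2, 56.7, 45 and 43.9 CPM in CDD replicates 1 to 4 and at 56.9, 52.1, 60.3 and 62.7 CPM in ND replicates 1 to 4. The diets overlapped, since CDD replicate 2, the brain with the caudal markers, was above ND replicate 2. The log2 fold change was -0.27 (SE 0.077; edgeR, adjusted p = 0.0440), and it was -0.35 without CDD replicate 2 (edgeR, adjusted p = 0.00369). The call was lost without CDD replicate 1, 3 or 4 and without ND replicate 1, 3 or 4 (edgeR, adjusted p up to 0.142).

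Scg5 (ENSMUSG00000023236) encodes 7B2, the chaperone that brings Pcsk2 to activity. It was at 53.2, 58.0, 56.7 and 50.2 CPM in CDD replicates 1 to 4 and at 61.6, 60.0, 62.3 and 62.0 CPM in ND replicates 1 to 4, without overlap. The difference was small, with a log2 fold change of -0.17 (SE 0.050; edgeR, adjusted p = 0.0381), and it was called in only 2 of the 8 fits that left out 1 brain, those without CDD replicate 2 or CDD replicate 3.

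Pcsk1n, which encodes the Pcsk1 inhibitor proSAAS, was at 144, 171, 160 and 125 CPM in CDD replicates 1 to 4 and at 182, 171, 184 and 172 CPM in ND replicates 1 to 4. Its log2 fold change of -0.24 (SE 0.080) was not called (edgeR, adjusted p = 0.0852), but it was called without CDD replicate 2 (-0.31; edgeR, adjusted p = 0.00981). Chga and Chgb, the chromogranins that drive granule formation, had log2 fold changes of -0.11 (95% interval -0.22 to 0.01) and -0.05 (95% interval -0.16 to 0.05). Scg3, which binds chromogranin A to the granule membrane, was at 130 ± 7.83 CPM in CDD and 127 ± 2.57 CPM in ND, with a 95% interval of -0.06 to 0.13 around 0.03. The intervals of Chga, Chgb and Scg3 did not hold a change as large as that of Vgf.

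None of the processing enzymes was called. Pcsk1 and Pcsk2, the convertases that cut the precursors, had log2 fold changes of 0.15 (95% interval -0.14 to 0.43) and -0.10 (95% interval -0.25 to 0.05). Cpe was at 463 ± 33.8 CPM in CDD and 479 ± 5.2 CPM in ND, a log2 fold change of -0.05 (95% interval -0.16 to 0.06). Pam, whose span overlaps B230216N24Rik on the same strand, was at 113 ± 10.2 CPM in CDD and 106 ± 1.53 CPM in ND (log2 fold change 0.09, 95% interval -0.02 to 0.20). Each of these intervals lay above the log2 fold changes of Nts, Cck and Sst.

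Summed over genes, the 30 precursors with a row had 138, 134, 131 and 108 CPM in CDD replicates 1 to 4 and 155, 142, 153 and 148 CPM in ND replicates 1 to 4, with Sst giving 33.5% of the sum. The granins summed to 485 to 580 CPM in CDD and 565 to 598 CPM in ND, and the enzymes to 558 to 665 CPM and 620 to 634 CPM. The precursor sums thus did not overlap, whereas those of the granins and the enzymes did. CDD replicate 4 was the lowest of the 8 brains in 18 of the 34 genes and in 13 of the 23 precursors, beside 23.7% of all genes tested. It was the highest brain in 1 of the 34 genes, beside 21.7% of all genes tested, so it was extreme in both directions over all genes. Without CDD replicate 4 edgeR called 4 precursors and 1 granin (Vgf) lower. That fit called 1514 genes in all, counting both directions, against 1710 with all 8 brains.

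**Figure D4:**
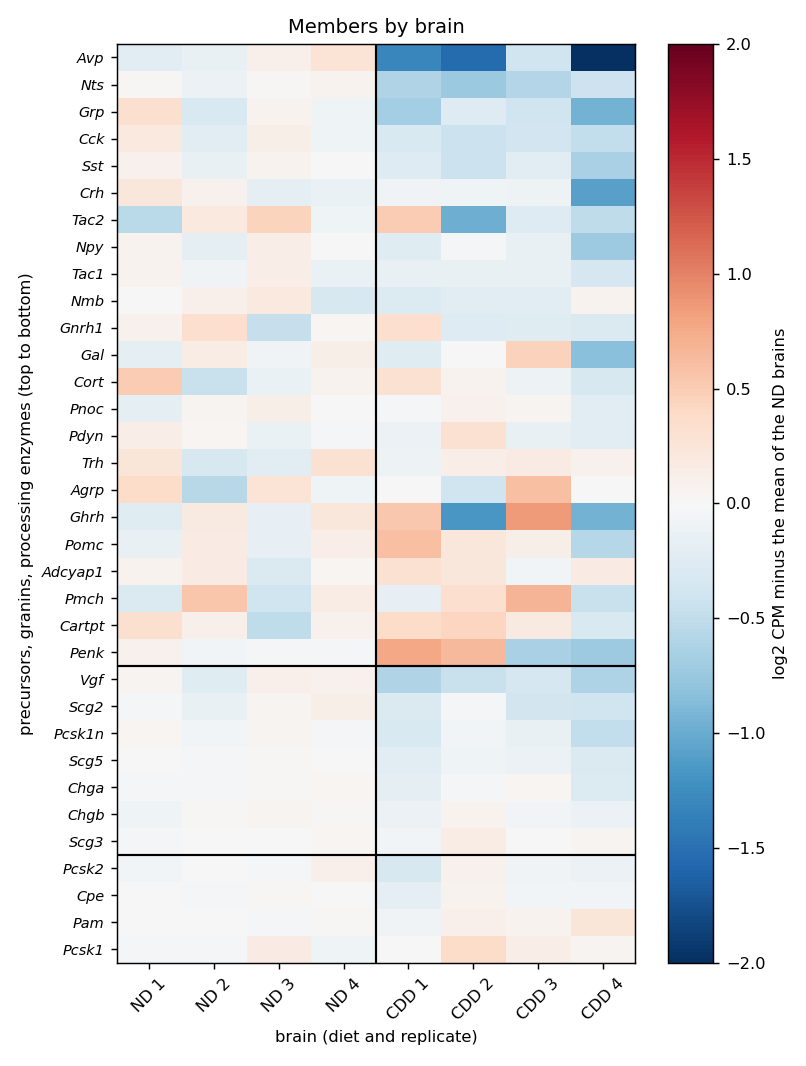
Log2 CPM of the 34 tested genes in each brain minus the mean of the 4 ND brains (blue lower, red higher), with precursors, granins and enzymes separated by black lines and the diets by a vertical line. The upper precursor rows and Vgf are blue in all CDD brains, CDD 4 is the lowest brain in 13 of 23 precursor rows, Penk is red in CDD 1 and CDD 2 and blue in CDD 3 and CDD 4, and the enzyme rows are pale.

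Many peptide genes are known to respond to cyclic AMP through the cyclic AMP response element (CRE), so promoters were searched for it. RefSeq promoters on GRCm38.p6 were found for 35 of the 43 genes. None was found for Vgf, Cpe, Agrp, Pnoc, Grp, Crh, Gnrh1 or Penk, so these genes were not searched. In the others the 250 bases before the gene start were searched on both strands for the full element TGACGTCA. It was present in 3 of 26 precursors (11.5%; Sst, Cartpt and Ucn), 2 of 6 granins (33.3%; Scg2 and Chgb) and 1 of 3 enzymes (Pcsk1), beside 1.77% of 27025 genes. The 5-letter core TGACG, which the full element contains, was in 13 of 26 precursors, 5 of 6 granins and 2 of 3 enzymes, beside 19.8% of genes. The exact letters TATAAA of the TATA box, on the sense strand, were in 7 of 26 precursors and in 0 granins and 0 enzymes, beside 8.94% of genes. They were counted at any place in the 250 bases, and variants of the box were not searched.

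The 120 bases before the gene start are shown, 5′ to 3′ on the gene's strand, for 3 of the genes called lower (Sst and Scg2 with the element, Nts without it) and for Chgb, Pcsk1 and Cartpt, which carry the element and were not called. Capitals mark the element. The windows lie at chr16:23890845-23890964 (Sst, minus), chr1:79440027-79440146 (Scg2, minus), chr10:102490419-102490538 (Nts, minus), chr2:132781522-132781641 (Chgb, plus), chr13:75089737-75089856 (Pcsk1, plus) and chr13:99900684-99900803 (Cartpt, minus).
Sst: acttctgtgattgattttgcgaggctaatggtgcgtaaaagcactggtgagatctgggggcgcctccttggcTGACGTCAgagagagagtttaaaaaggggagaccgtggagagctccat
Scg2: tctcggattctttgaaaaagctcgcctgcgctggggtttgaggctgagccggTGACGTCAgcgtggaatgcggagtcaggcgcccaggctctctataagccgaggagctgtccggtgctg
Nts: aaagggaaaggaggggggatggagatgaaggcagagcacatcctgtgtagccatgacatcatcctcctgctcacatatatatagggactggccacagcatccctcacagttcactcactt
Chgb: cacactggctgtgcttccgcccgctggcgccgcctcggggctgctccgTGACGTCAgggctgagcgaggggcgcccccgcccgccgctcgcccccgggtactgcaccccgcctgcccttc
Pcsk1: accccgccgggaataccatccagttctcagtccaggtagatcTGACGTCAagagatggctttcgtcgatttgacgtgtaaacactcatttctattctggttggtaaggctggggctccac
Cartpt: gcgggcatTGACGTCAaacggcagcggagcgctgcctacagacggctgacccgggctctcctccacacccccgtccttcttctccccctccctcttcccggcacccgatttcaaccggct
The element begins 48 bases before the start in Sst, 68 in Scg2, 72 in Chgb, 78 in Pcsk1 and 112 in Cartpt. Of the 5 tested genes in which it was found, 2 were called lower and 3 were not. Their log2 fold changes were -0.38 in Sst, -0.27 in Scg2, -0.05 in Chgb, 0.15 in Pcsk1 and 0.17 in Cartpt. Vgf, the granin with the largest difference, could not be searched. A match is a description of these letters and says nothing about binding in these brains.

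The machinery of dense-core vesicles beyond the cargo was read from a list of 43 genes, all tested. Of these 11 (25.6%) were called lower in CDD and 0 higher, beside 4.59% and 4.24% of all genes, and the median log2 fold change was -0.12. DESeq2 and limma-voom also called 0 of them higher, and 2 were higher at an unadjusted p under 0.05. Baiap3, which acts in vesicle recycling, was at 14.9, 16.8, 17 and 15 CPM in CDD replicates 1 to 4 and at 21.7, 22.5, 24.2 and 22.6 CPM in ND replicates 1 to 4 (log2 fold change -0.52; edgeR, adjusted p = 0.000671). The calcium sensor Syt5 had -0.34 (edgeR, adjusted p = 0.000988), the vesicle SNARE Vamp2 -0.27 (edgeR, adjusted p = 0.00437) and the GTPase Rab3a -0.24 (edgeR, adjusted p = 0.00672). All 4 were called in each fit that left out 1 brain, while the count of 11 went to 7 without ND replicate 1, 5 without ND replicate 3 and 6 without ND replicate 4. Several of these genes, such as Vamp2 and Snap25, serve synaptic vesicles as well.

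Of 18 further tested precursors 1 (5.56%) was called lower, near the 4.59% of all genes called lower. It was the endothelin gene Edn3 (log2 fold change -0.38; edgeR, adjusted p = 0.0423). Called higher were 0 (0 also with DESeq2, limma-voom or at an unadjusted p under 0.05). Edn3 was called in 2 of the 8 fits that left out 1 brain, and not without CDD replicate 1, 2 or 4 or ND replicate 1, 3 or 4. Of 29 other peptidases, 3 (10.3%) were called lower and 1 (3.45%) higher, beside 4.59% and 4.24% of all genes. The convertase Pcsk5 had -0.28 (edgeR, adjusted p = 0.0298), the peptidase Dpp4 -0.52 (edgeR, adjusted p = 0.0326), the neurotensin-cutting neurolysin Nln -0.15 (edgeR, adjusted p = 0.0499) and the insulin-degrading enzyme Ide 0.20 (edgeR, adjusted p = 0.0328). Pcsk5 was called in 3 of the 8 fits that left out 1 brain and Dpp4, Nln and Ide in 2 each, and none of the 4 was called without ND replicate 1, 3 or 4.

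Regulators of neurosecretory genes were called in both directions. Of 20 tested, 5 (25.0%) were called higher in CDD and 1 (5.0%) lower, beside 4.24% and 4.59% of all genes. St18 had 0.61 (edgeR, adjusted p = 0.000403), Nhlh1 0.49 (edgeR, adjusted p = 0.00188), Myt1 0.23 (edgeR, adjusted p = 0.005) and Nhlh2 0.30 (edgeR, adjusted p = 0.00870), while Nr4a3 was lower at -0.41 (edgeR, adjusted p = 0.00287). Rest, the repressor of neuronal genes whose targets include several granins, was at 32.2, 30.2, 28.1 and 30.6 CPM in CDD replicates 1 to 4 and at 27.6, 28.6, 28.1 and 29.3 CPM in ND replicates 1 to 4 (log2 fold change 0.09; edgeR, adjusted p = 0.366).

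Hypothalamic identity genes were read because vasopressin neurons arise in the hypothalamus. Not all of the list is confined to that region, and Slc18a2 also stands in the dense-core list. Whole-brain levels of these genes therefore cannot place a difference in the hypothalamus. Of 28 tested, 3 (10.7%) were called higher in CDD and 0 lower, beside 4.24% and 4.59% of all genes. The median was 0.11, and 1 was lower at an unadjusted p under 0.05. Otp, needed for vasopressin neurons, was at 34.2 ± 3.19 CPM in CDD and 28.7 ± 1.17 CPM in ND (log2 fold change 0.25; edgeR, adjusted p = 0.0242), and its partner Sim1 was at 8.39 ± 1.63 and 6.10 ± 0.659 CPM (0.46; edgeR, adjusted p = 0.0315). Nkx2-1 had 0.24 (edgeR, adjusted p = 0.0184), and Pou3f2, which acts downstream of Sim1, had -0.08 (edgeR, adjusted p = 0.199). The count of 3 went to 0 without ND replicate 1, ND replicate 3 or ND replicate 4. Avp and these 3 genes thus differed in opposite directions between the same brains.

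Some markers of progenitors and of neurons differed between the diets too, while others did not. Over all genes tested, 4.24% were called higher and 4.59% lower. Of 16 tested progenitor markers 8 were called higher in CDD and 0 lower (median 0.21, 1 lower at an unadjusted p under 0.05), and their summed level was 3135 to 3504 CPM in CDD and 2828 to 2992 CPM in ND brains. The cell-cycle gene Ccnd1 had 0.50 (edgeR, adjusted p = 0.000403), Top2a 0.44 (edgeR, adjusted p = 0.00287), the intermediate filament gene Nes 0.47 (edgeR, adjusted p = 0.00344) and Pax6 0.25 (edgeR, adjusted p = 0.00642). Of 22 tested markers of postmitotic neurons 5 (22.7%) were called lower and 1 (4.55%) higher (median -0.05). Their summed level overlapped, at 9947 to 11047 CPM in CDD and 10382 to 10855 CPM in ND. The neuron markers Tubb3 (log2 fold change 0.02), Map2 (0.09) and Dcx (0.06) were not called. The progenitor markers Fabp7 (-0.04), Slc1a3 (0.03) and Dbi (-0.21) were not called either. The inhibitory transporter Slc32a1 had -0.19 (edgeR, adjusted p = 0.0183), Syn1 -0.18 (edgeR, adjusted p = 0.0228), Snap25 -0.23 (edgeR, adjusted p = 0.0246), Syp -0.18 (edgeR, adjusted p = 0.0253) and Gad2, an enzyme of GABA synthesis, 0.16 (edgeR, adjusted p = 0.0357). The progenitor count of 8 went to 5 without ND replicate 1 and to 4 without ND replicate 3 or ND replicate 4. The neuron count of 5 went to 0 without ND replicate 1, ND replicate 3 or ND replicate 4 and to 1 without CDD replicate 1. The part of these shifts in the lower peptide and granin genes was not tested. Of the other marker lists, sensory ganglion (13 tested) and caudal markers (3 tested) had 0 genes called in either direction by edgeR, DESeq2, limma-voom or at an unadjusted p under 0.05, 1 of 6 tested pituitary markers was called higher (Lhx4, 1.05; edgeR, adjusted p = 0.00614), 2 of 10 brain check genes were called higher (Pax6 and Otx2), and 1 of 5 tested genes of a non-brain check list was called higher (Col2a1).

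**Figure D5:**
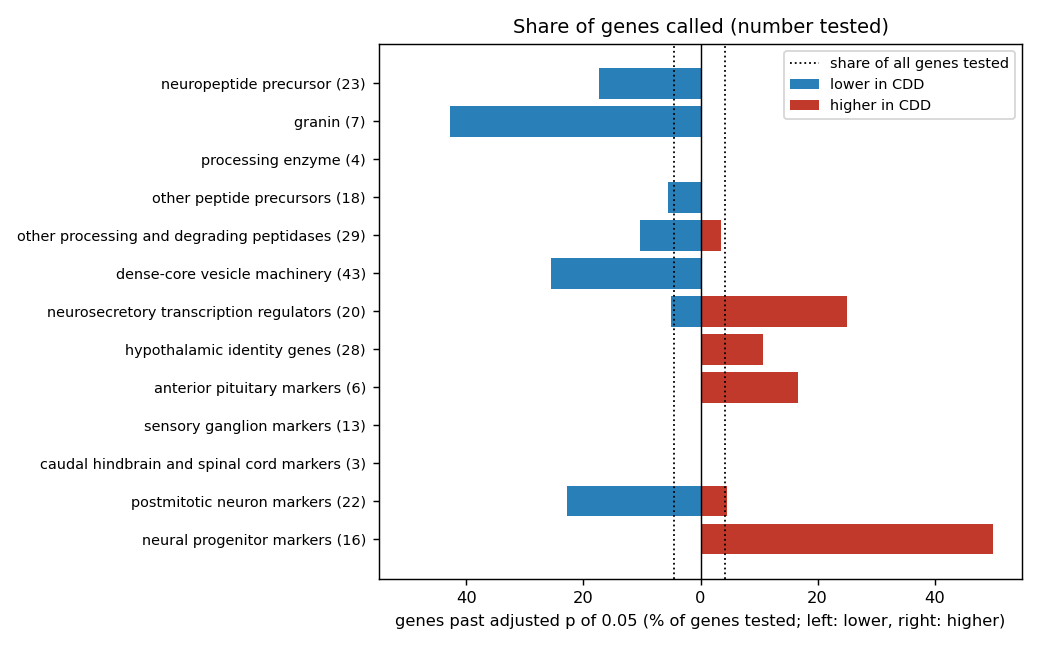
Percent of tested genes called lower (blue, to the left) or higher (red, to the right) in CDD for each class of genes and each companion list, with the number tested in brackets and dotted lines at the shares of all genes tested, 4.59% lower and 4.24% higher. Granins at 42.9%, dense-core vesicle machinery at 25.6%, postmitotic neuron markers at 22.7% and precursors at 17.4% reach furthest to the left. Progenitor markers, with 8 of 16 genes, reach furthest to the right.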

How the data were processed

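Poly-A RNA of whole brains from wild-type embryos (E14.5) of dams on CDD or ND was sequenced (n = 4 each). Per the submitters' processing notes, the authors used HISAT2 2.0.5, featureCounts 1.5.0-p3 and DESeq2 1.20.0. The genome build and the strand setting of the counting are not given in the sources used here. The authors deposited raw read counts and FPKM values per gene and brain, and featureCounts leaves out reads shared by overlapping genes by default, which lowers such genes. Another 8 columns of size-factor normalized values were not used, nor were the authors' fold changes and p-values.

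Counts were fitted across the whole table in R 4.3.3 with edgeR 4.0.16 (filterByExpr with its minimum count of 10, TMM, robust quasi-likelihood test, Benjamini-Hochberg adjustment over 19367 genes, diet as the single term). CPM use TMM-scaled library sizes, and log2 CPM a prior count of 2. Intervals are 95% intervals of the fit. Deposited FPKM served only to compare levels between genes. Library totals were 31770217 to 43121170 counts. On simulated counts for 19107 genes the test called 36 of 59 genes changed by 0.5, 58 of 65 changed by 1 and 65 of 67 changed by 1.5 on the log2 scale in the right direction.

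Samples were grouped by the diet in the labels. No pair of brains agreed within sampling noise, since the chi-square per degree of freedom was 3.76 to 30.8. CDD replicate 4 was the CDD brain furthest from the ND brains, at 21.4 to 30.8, beside 11.8 to 18.5 for CDD replicate 2. Alternatives were DESeq2 1.42.0, limma-voom (limma 3.58.1), RLE and upper-quartile scaling, other filters, a replicate block, Xist as a covariate, other thresholds and leaving out each brain. A fit of the 5 brains without Xist was chosen after seeing the data. The members and companion lists were chosen with earlier results of these data known. All 43 members are accounted for. Called members, members without overlap between the diets and the 6 most abundant ones are given by brain or level. From each companion list at most 4 called genes a direction with the smallest p are named, plus Rest, Otp, Sim1, Pou3f2, Nkx2-1, Pou1f1 and Cga, and further genes named for marker or overlap checks (Hoxa5, Otx2 and Col2a1 among them) were chosen after their values were seen. Sequences come from GENCODE M21 transcripts and from RefSeq promoters (GRCm38.p6), not from the sequenced reads.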

Additional observations from a re-analysis of the deposited data

Results flagged for a closer look

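Within a diet, 4 of the 68 groups of 4 brains held a brain far from the other 3 by Dixon's gap ratio at its 95% critical value, and chance flags about 1 in 20 groups, or 3.4 of 68. In CDD replicate 4 the stress-axis peptide gene Crh was at 0.452 CPM, with the other CDD brains at 0.953 to 0.966 CPM, and Tac1 was at 10.2 CPM, with the others at 11.6 to 11.7 CPM. The gonadotropin-releasing hormone gene Gnrh1 was at 1.90 CPM in CDD replicate 1 and at 1.21 to 1.25 CPM in the other CDD brains. Vgf was at 15.7 CPM in ND replicate 2 and at 19.2 to 19.7 CPM in the other ND brains, and that lowest ND value still lay above the highest CDD value.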

How the results depend on the processing

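The count of precursors lower in CDD was 4 and that of granins 3. Leaving out 1 brain at a time gave 2 to 4 precursors and 1 to 4 granins, with 2 precursors without ND replicate 3 and 1 granin without CDD replicate 1 or 4 or ND replicate 1, 3 or 4. At an adjusted p under 0.01 there was 1 precursor and 1 granin, and at an unadjusted p under 0.05 there were 7 precursors. Among the 5 brains without Xist 2 precursors were lower. There Avp, Cck and Scg5 were not called, Pcsk1n was, and Sst had -0.24. Over all genes, 1710 calls became 471 to 2495 when 1 brain was left out (688, 471 and 615 without ND replicates 1, 3 and 4), 477 at an adjusted p under 0.01 and 4627 at an unadjusted p under 0.05. No gene of the 3 classes was called higher in any of these fits. The replicate numbers were checked for pairing, and same-numbered brains deviated with correlations of 0.105, -0.133, 0.117 and 0.232. Since 1 pair was not over 0.1 and the labels tie the numbers to no litter or batch, no pairing was assumed, although 3 of the 4 CDD brains correlated best with the ND brain of their own number. With the replicate block 1812 genes, 4 precursors and 3 granins were called, Scg2 was no longer called (edgeR, adjusted p = 0.125) and Pcsk1n was. Estimates near 0 that were not called changed sign in some fits. With limma-voom Ghrh went to -0.18 and Penk to -0.02, and with the replicate block Ghrh went to -0.02. In the brains without Xist Gal went to 0.22, Tac2 to 0.06, Pnoc to 0.0044, Gnrh1 to 0.04, Cort to 0.07 and Scg3 to -0.02. Leaving out 1 brain gave log2 fold changes of -0.03 to 0.33 for Pomc, -0.17 to 0.22 for Agrp, -0.05 to 0.16 for Trh, -0.38 to 0.38 for Ghrh, -0.34 to 0.12 for Gal, -0.10 to 0.38 for Penk, -0.16 to 0.03 for Pdyn, -0.08 to 0.03 for Pnoc, -0.11 to 0.38 for Pmch, -0.29 to 0.0031 for Gnrh1, -0.19 to 0.17 for Cort and -0.0019 to 0.07 for Scg3. Ghrh had no value under the filter of 10 counts in every brain. The causes were not tested. Depth limits the 7 precursors under the filter.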
